A study of Mus musculus with 10 samples.

Results

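The regulators of G protein signalling (RGS) examined here were Rgs1, Rgs2, Rgs3, Rgs10, Rgs13, Rgs14, Rgs16, Rgs18 and Rgs19. They were taken from the count table by the symbol of each gene identifier, with no rule on their values. The list itself was drawn up with earlier results of these data known. It holds 9 of the table's 55421 genes and 9 of the 21 genes with an Rgs symbol. All 9 passed the filter on low counts. RNA was sequenced from germinal center B cells of C57BL/6 mice aged 8 to 10 weeks. The cells came from the spleen on day 10 after an immunization whose antigen the labels do not give, and were enriched with PNA beads. Mice labelled WT had the genotype Pbrm1+/+ and those labelled HOMO Pbrm1-/-. From both, a CB and a CC fraction were sequenced. The labels do not spell CB and CC out, and the title of the study names centrocytes. Each WT fraction had 3 libraries and each HOMO fraction 2, which makes 10. The names of the count columns hold the letters AID, which the labels do not explain, and no label names a Cre driver, a floxed allele or pooled animals. The HOMO libraries carry the numbers 2 and 3 of the count table. No label says that libraries of a group came from separate mice, so p-values measure the spread between these samples, which may be technical.

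Chemokine, sphingosine phosphate and oxysterol receptors of B cells act through heterotrimeric G proteins, whose alpha subunit signals while it holds GTP and stops once it has hydrolysed it. RGS proteins speed that hydrolysis through a shared domain and so shorten the signal. In germinal centers the chemokine receptors Cxcr4 and Cxcr5 place B cells in the dark and light zones, and S1pr2, acting through Gna13, holds the cells in the follicle. Rgs1, Rgs2, Rgs3, Rgs13, Rgs16 and Rgs18 belong to the R4 subfamily, whose members are mostly small proteins, Rgs10 and Rgs14 to the R12 subfamily, and Rgs19 to the RZ subfamily.

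Total counts per library ranged from 9954006 to 67625110. Levels are given as CPM, counts scaled to the library size with TMM factors, and as RPKM, the same per kilobase of the deposited gene length, where genes are compared with each other. Pbrm1, the targeted gene, averaged 313.3 CPM in WT CB, 170.9 in HOMO CB, 242.7 in WT CC and 151.1 in HOMO CC, so its transcript was lower in HOMO but not absent. Summed over 5 dark zone markers, CB libraries held 1142 to 1485 CPM and CC libraries 540 to 644, and over 5 light zone markers CB libraries held 363 to 425 and CC libraries 949 to 1106. Some properties of the libraries moved with some of the values below. WT libraries with the same number deviated together from their group means, and WT CB and WT CC number 3 stood apart from numbers 1 and 2. The 10 macrophage markers summed to 1015 CPM in WT CC library 1, 468.6 in library 2 and 289.1 in library 3. The sums were 314.7 to 408.4 in WT CB, 274.8 to 312.4 in HOMO CB and 235.4 to 246.1 in HOMO CC. Apoe alone held 211.5 to 399.0 CPM per library, most of each sum outside WT CC library 1. Apart from Apoe and Cd68, each marker was higher in all WT CC libraries than in any other library. Csf1r held 195.9, 40.8 and 7.02 CPM in WT CC, by number, and 0.146 to 2.92 elsewhere.

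Per kilobase, Rgs13 was the most abundant of the RGS genes, with a mean of 104 RPKM over the 10 libraries, followed by Rgs2 at 42.3, Rgs19 at 30.2, Rgs10 at 16.0 and Rgs14 at 11.6. Rgs1 (3.15 RPKM), Rgs18 (2.0), Rgs3 (0.8) and Rgs16 (0.206) were much lower. The order of neighbours in this ranking held in 10 of 10 libraries for 6 of the 8 neighbouring pairs. Rgs2 stood above Rgs19 in 9 of 10 libraries, and Rgs1 above Rgs18 in 5 of 10, so Rgs1 and Rgs18 could not be ordered. Rgs13, Rgs2 and Rgs19 together made up 67.6% to 83.7% of the RPKM summed over the 21 RGS genes (median 81.3%), and Rgs13 alone 31.4% to 51.2% (median 49.0%). Of the other 12 RGS genes, Rgs9 (8.79 RPKM), Rgs12 (1.38), Rgs11 (0.261) and Rgs4 (0.227) exceeded at least 1 of the 9 members in mean level, while Rgs5, Rgs17 and Rgs21 had no read in any library. The length used for Rgs1, 6947 bases, covers its whole locus because several annotated transcripts retain introns. With the longest coding transcript of each gene as the length, the order of the 9 members by mean level was the same. Rgs18, at 2.0, and Rgs3, at 1.84, were then close, and the counts of libraries above hold for the deposited lengths only. By mean CPM, without a length, Rgs14 (49.2) stood above Rgs10 (27.4) and Rgs3 (8.64) above Rgs18 (4.06).

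**Figure D1:**
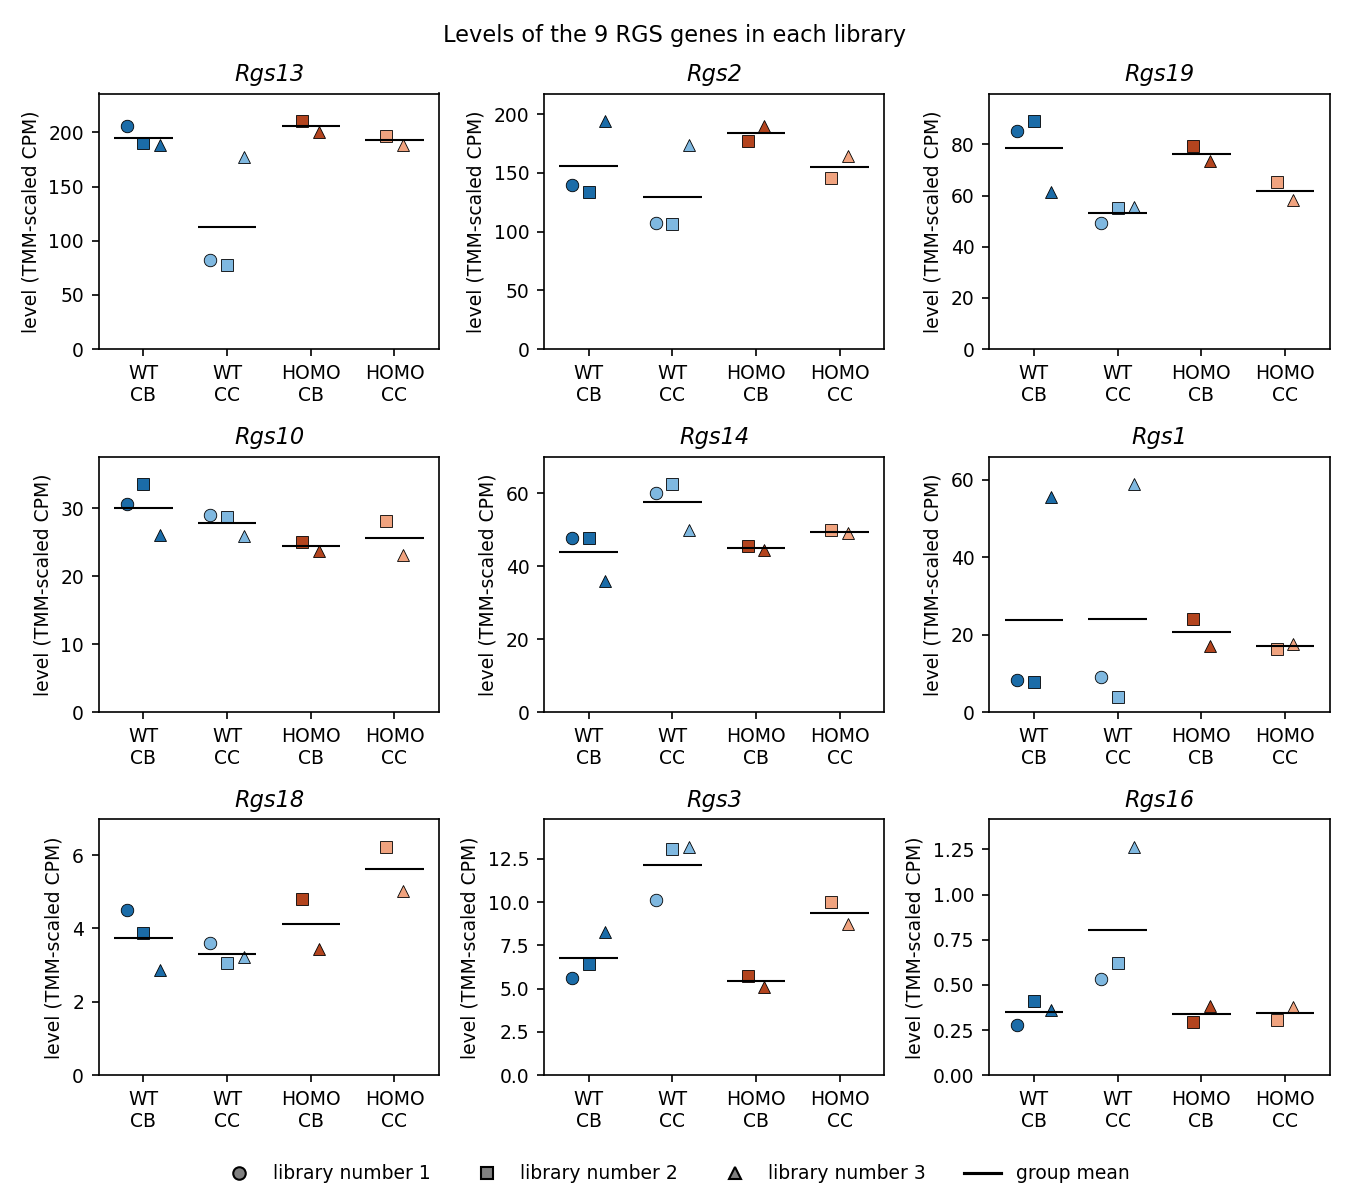
Level of each of the 9 RGS genes in TMM-scaled CPM (vertical axes, each from 0) in every library, by group (horizontal axes). Each point is 1 library and each horizontal bar a group mean. Rgs13 in WT CC libraries 1 and 2 lies at 82.6 and 77.9 CPM, below the other 8 libraries at 176.9 to 210.5, and Rgs1 in the WT libraries numbered 3 lies at 55.5 and 58.9, above the other 8 at 3.88 to 24.1.

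Rgs13, Rgs2, Rgs1 and Rgs18 lie side by side on mouse chromosome 1 (mm10). The stretch from 143999338 to 144775435 holds 5 protein-coding genes, all of them RGS genes, the other being Rgs21. All 4 are on the minus strand, with Rgs2 at 143999338 to 144004161, Rgs13 at 144138654 to 144177372, Rgs1 at 144242296 to 144249242 and Rgs18 at 144752683 to 144775435. The 250 bases before the RefSeq start sites (GRCm38.p6, minus strand) of the 2 most abundant of them, Rgs13 and Rgs2, are shown because these neighbours have very different promoters. Capitals mark the NF-kB match in Rgs13 and the 2 matches of the CRE core TGACG, 1 on each strand, in Rgs2.
Rgs13, chr1:144177373-144177622: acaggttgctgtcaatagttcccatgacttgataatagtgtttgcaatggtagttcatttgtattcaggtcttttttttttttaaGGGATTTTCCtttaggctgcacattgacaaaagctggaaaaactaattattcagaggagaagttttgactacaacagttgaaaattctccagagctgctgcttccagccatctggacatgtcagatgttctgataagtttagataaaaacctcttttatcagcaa
Rgs2, chr1:144004150-144004399: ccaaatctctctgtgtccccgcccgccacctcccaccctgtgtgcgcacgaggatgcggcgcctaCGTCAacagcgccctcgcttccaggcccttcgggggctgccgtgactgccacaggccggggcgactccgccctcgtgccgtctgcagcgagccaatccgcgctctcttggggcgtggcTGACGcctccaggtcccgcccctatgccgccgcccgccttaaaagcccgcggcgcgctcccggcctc
The Rgs13 window is AT-rich, with 36.0% GC and 0 CpG dinucleotides, and the Rgs2 window has 72.4% GC and 30 CpG, against medians of 52.4% and 6 over all 32851 RefSeq promoter windows of that length. The NF-kB match lies 165 bases before the Rgs13 start, and the CRE core matches 67 and 185 bases before the Rgs2 start. An NF-kB match occurs in 3.9% of all windows and the CRE core in 17.8%. RefSeq windows were matched for 6 of the 9 genes, and not for Rgs1, Rgs14 and Rgs18. The motifs searched on both strands were the CRE (TGACGTCA), its core (TGACG, which the CRE contains), EGR1 (GCGTGGGCG), E-box (CACGTG), octamer (ATGCAAAT), the TATA box, with the letters TATAAA, and NF-kB and the SRF CArG box by their consensus. A match describes the letters of the window and is not a measured binding site.

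Rgs13, an R4 member known from germinal center B cells, where it restrains responses to chemokines, had nearly the same level in 8 of the 10 libraries. Libraries 1, 2 and 3 of WT CB held 205.5, 190.4 and 188.1 CPM, and those of WT CC 82.56, 77.88 and 176.9. HOMO CB libraries held 210.5 and 200.5, and HOMO CC libraries 196.7 and 188.6. WT CC libraries 1 and 2 were thus the low ones, and WT CC library 3 was close to the CB libraries, though still below all 3 of them. CC against CB in WT was -0.80 on the log2 scale (SE 0.266, 1.73-fold lower), which missed the threshold of 0.05 (adjusted p = 0.0571, edgeR's quasi-likelihood test with Benjamini-Hochberg adjustment over 16596 genes). In HOMO the same difference was -0.09 (SE 0.323, adjusted p = 0.933).

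The Rgs13 values of WT CC turned on which libraries were used. With the WT number as a block the change from CB to CC was -0.90 and passed (adjusted p = 0.0402), without WT CC library 3 it was -1.26 (adjusted p = 1.32e-05), and with WT number 3 left out of both fractions -1.30 (adjusted p = 1.03e-08), all with edgeR. Without WT CC libraries 1 and 2 it was -0.13 (adjusted p = 0.496). WT CC is then library 3 alone, here and wherever these 2 are left out below, and edgeR assumes that it varies like the other groups. The filter on low counts also decided the calls at nearly the same log2 changes. Without it the adjusted p was 8.91e-11 for CC against CB in WT, 7.01e-08 for HOMO against WT in CC and 0.0174 for the interaction described next. Rgs13 was 1.72-fold higher in HOMO CC than in WT CC (log2 0.78, SE 0.293), with no overlap between the groups, and did not pass (adjusted p = 0.206). That difference was 1.27 without WT CC library 3 (adjusted p = 5.05e-04) and 0.12 without WT CC libraries 1 and 2 (adjusted p = 0.804). The interaction, the difference between the genotypes in the change from CB to CC, was 0.70 (SE 0.418, adjusted p = 1.0), and passed without WT CC library 3 (adjusted p = 0.0149) and without both libraries of number 3 (adjusted p = 1.59e-05).

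Other library properties went with the low Rgs13 values. WT CC libraries 1 and 2 had the highest sums of macrophage markers (above). The 5 erythroid markers summed to 42.51 and 8.70 CPM in them and to 0.24 to 1.99 in the other 8 libraries, and the 6 plasma cell markers to 292.6 and 318.1 CPM, against 414.1 to 840.3. The low plasma cell sums came mainly from Jchain, at 137.7 and 153.3 CPM against 231.0 to 666.0. Every other plasma cell marker lay within the range of the other 8 libraries. Irf4, at 71.27 and 80.05 CPM, was above WT CB libraries 1 and 2, at 37.07 and 37.34. WT CC libraries 1 and 2 also had the strongest relation between a gene's deviation and its GC content, with Spearman's rho of 0.429 and 0.547 across 8762 genes within each library, against -0.629 to 0.252 in the other 8. A positive rho means that AT-rich genes read low in that library. Rgs13 has 34.4% GC in its longest transcript, and 0.183% of genes have less. With an offset for GC content in edgeR the change from CB to CC in WT was -0.61 (adjusted p = 0.0756) and the HOMO difference in CC fell to 0.39 (adjusted p = 0.497). The same offset moved the HOMO difference in CB from 0.08 to -0.47 and the change from CB to CC in HOMO from -0.09 to 0.25. The interaction was 0.86 with the offset (SE 0.354, edgeR adjusted p = 0.99) and 0.70 without it, and passed in neither. The part of GC content, or of macrophage, erythroid or plasma cell transcripts, in the Rgs13 values was not tested.

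**Figure D2:**
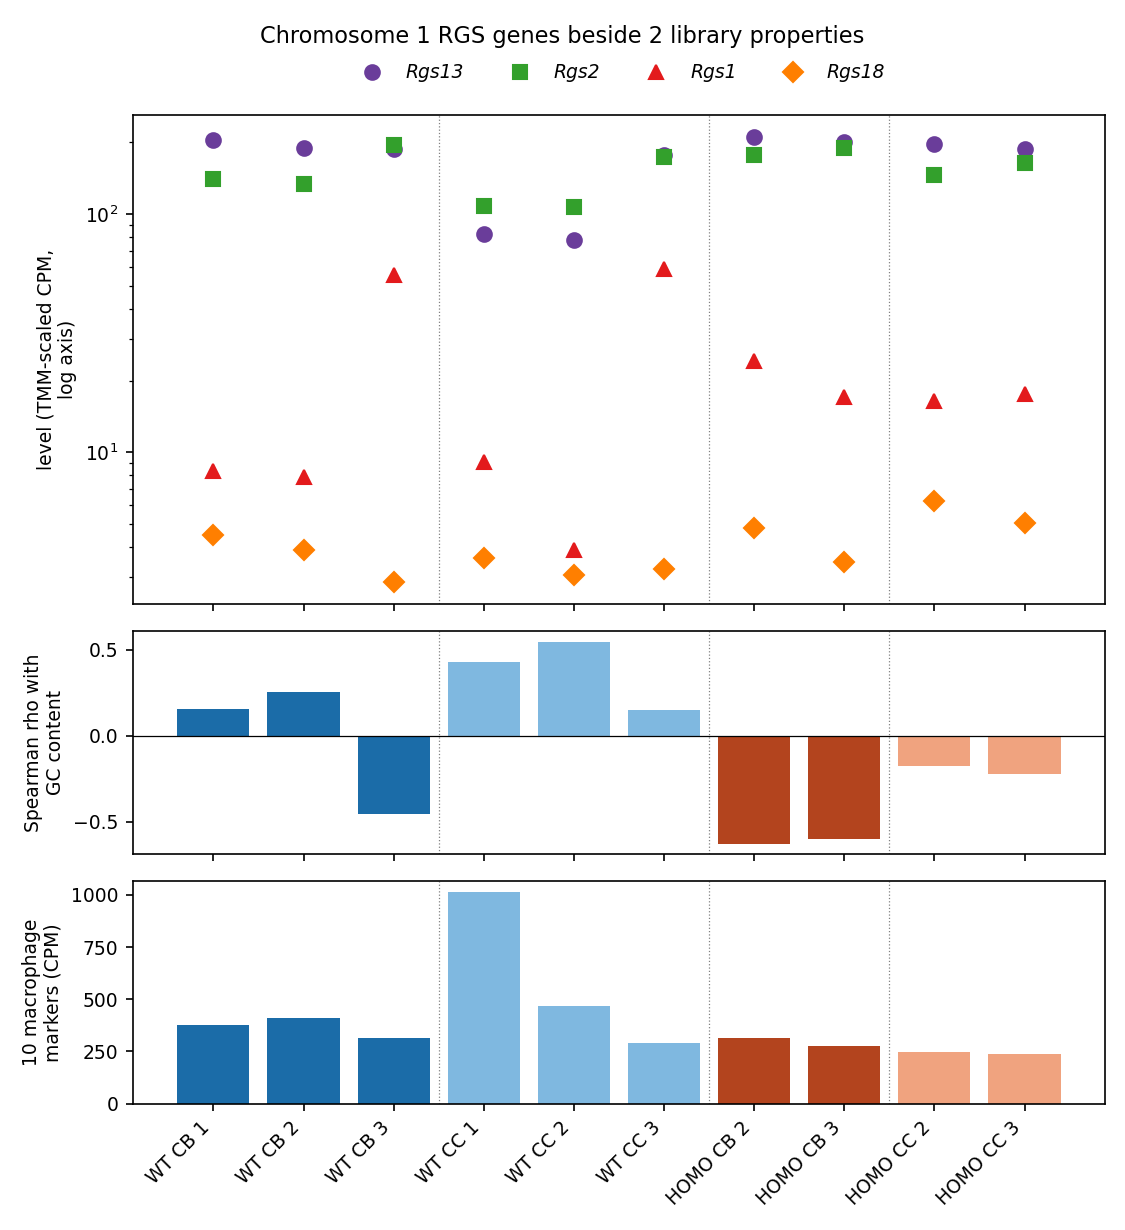
Levels of Rgs13, Rgs2, Rgs1 and Rgs18 in TMM-scaled CPM on a log axis (top), Spearman's rho between each gene's deviation and its GC content (middle) and the summed CPM of 10 macrophage markers (bottom), for each of the 10 libraries. WT CC libraries 1 and 2 combine the lowest Rgs13 values, 82.6 and 77.9 CPM, with the highest rho, 0.429 and 0.547, and the highest macrophage sums, 1015 and 468.6 CPM. Apoe makes up most of the macrophage sum outside WT CC library 1.

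Rgs2, an R4 member that acts mainly on Gq, was abundant in every library and followed the WT numbers more than the groups. Its levels were 139.8, 134.0 and 194.2 CPM in WT CB, 107.7, 106.7 and 173.3 in WT CC, 177.2 and 189.8 in HOMO CB, and 145.7 and 164.0 in HOMO CC. In each WT number CC lay below CB, and number 3 was high in both fractions. The change from CB to CC in WT was -0.27 (SE 0.195, adjusted p = 0.348, edgeR), and with the WT number as a block it was -0.29 and passed (adjusted p = 0.0107). In HOMO it was -0.25 (SE 0.239, adjusted p = 0.663). HOMO CB and HOMO CC lay inside the ranges of WT CB and WT CC, with log2 differences of 0.23 (adjusted p = 0.672) and 0.26 (adjusted p = 0.547).

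Rgs1, an R4 member that limits chemokine-driven migration of lymphocytes and is induced when B cells are activated, was the most variable of the 9 genes, with a 15.2-fold range. In WT CB it stood at 8.352, 7.902 and 55.47 CPM, in WT CC at 9.078, 3.884 and 58.91, in HOMO CB at 24.13 and 17.1, and in HOMO CC at 16.36 and 17.65. The WT libraries numbered 3 were high in both fractions, numbers 1 and 2 were low in both, and all 4 HOMO libraries fell between them. No contrast passed, and the SEs in edgeR's fit, 1.13 to 1.81 on the log2 scale, are too large for a 2-fold difference to be detected. The direction of the HOMO difference depended on the WT libraries kept. Without both libraries of number 3, Rgs1 was higher in HOMO by 1.36 in CB (adjusted p = 0.0147) and 1.40 in CC (adjusted p = 0.0179), and without numbers 1 and 2 its log2 differences were -1.48 and -1.78. The latter rest on 1 WT library in each fraction, with the spread taken from the HOMO libraries alone, so no p is given for them.

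The neutrophil and T cell marker sums were also highest in the WT libraries numbered 3. The macrophage and erythroid sums of WT CC went the other way and were lowest in number 3, at 289.1 and 0.632 CPM. The 8 neutrophil markers summed to 0.985, 0.0343 and 15.04 CPM in the WT CB libraries, by number, and to 0.246, 0 and 14.81 in WT CC, and the 8 T cell markers to 2.72, 4.36 and 8.62 and to 10.9, 12.0 and 17.7. Within the T cell list, Lat did not follow this order. It held 1.694, 1.993 and 1.884 CPM in WT CB and 4.724, 5.075 and 3.932 in WT CC, by number. Cd5 was highest in number 2 of WT CC. In the HOMO libraries the neutrophil sum ranged from 8.16 to 169.5 CPM while Rgs1 ranged from 16.36 to 24.13. The part of these cells in the Rgs1 values was not tested. Rgs1 and Rgs2 deviated together, with r = 0.83 across the 10 libraries and 0.94 after removal of the group means, values that share library depth and the WT numbers. The genes whose log2 levels were closest to Rgs1, looked up after its values had been seen, were the heat shock genes Hsph1 (r = 0.96) and Dnaja1 (r = 0.96) and Togaram1 (r = 0.96) among 8002 genes in 10 libraries.

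Rgs18, best known from platelets and megakaryocytes, was low in all libraries. WT CB libraries held 4.491, 3.882 and 2.865 CPM, WT CC libraries 3.615, 3.055 and 3.23, HOMO CB libraries 4.797 and 3.452, and HOMO CC libraries 6.225 and 5.029. Both HOMO CC libraries lay above all 3 WT CC libraries, by 0.77 on the log2 scale (SE 0.282, 1.71-fold), which did not pass (edgeR adjusted p = 0.19). Rgs18 has 33.4% GC, and only 0.0685% of genes have less. With the GC offset the difference was 0.29 (adjusted p = 0.752). The offset also moved the HOMO difference in CB from 0.14 to -0.49 and the interaction from 0.63 to 0.77. Of the 6 platelet and megakaryocyte markers, Gp1bb had no read in any library, Gp9 had reads in 1 library (0.0156 CPM), Pf4 did not exceed 0.103 CPM and Ppbp did not exceed 0.256. Itga2b was present in every library at 0.412 to 1.48 CPM, and Itgb3 made up nearly all of the list's sum of 38.26 to 130.3 CPM. The part of such cells in the Rgs18 values was not tested.

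Rgs16, an R4 member induced by lymphocyte activation, lies apart on the same chromosome at 153740349 to 153745468 and was close to the limit of detection. Its counts were 7, 12 and 23 in WT CB, 13, 12 and 18 in WT CC, 8 and 26 in HOMO CB, and 5 and 4 in HOMO CC. As CPM these were 0.2758, 0.4123 and 0.3581, then 0.534, 0.6214 and 1.264, then 0.293 and 0.3803, and last 0.3051 and 0.3796. WT CC was above the other 3 groups without overlap, by 1.17 over WT CB (SE 0.557, adjusted p = 0.154) and with HOMO CC at -1.22 against it (SE 0.691, adjusted p = 0.359), and neither passed in edgeR. Without WT CC library 3, the highest, these differences were 0.73 (adjusted p = 0.352) and -0.75 (adjusted p = 0.501). The exons of Rgs16 share 236 of 2339 bases with the antisense gene Gm28513, and no source used here gives the strand setting, so reads of the pair cannot be told apart. No exon of the other 8 genes overlaps another gene.

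Rgs3, an R4 member that acts on Gi and Gq and has long forms with added domains, was higher in CC. It lies on chromosome 4 at 62559847 to 62704001 on the plus strand. The Rgs3 window with the most upstream start site (GRCm38.p6) is shown beside that of Rgs19 (chromosome 2, 181688419 to 181693977, minus strand), since these genes passed in opposite directions. Capitals mark a TATA match 100 bases before the Rgs3 start, a motif found in 12.4% of windows.
Rgs3, chr4:62559597-62559846: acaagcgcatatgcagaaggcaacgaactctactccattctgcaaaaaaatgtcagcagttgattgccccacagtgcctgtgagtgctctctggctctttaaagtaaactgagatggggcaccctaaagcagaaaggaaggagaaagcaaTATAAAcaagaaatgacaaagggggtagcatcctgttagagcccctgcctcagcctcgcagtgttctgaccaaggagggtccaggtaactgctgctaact
Rgs19, chr2:181693978-181694227: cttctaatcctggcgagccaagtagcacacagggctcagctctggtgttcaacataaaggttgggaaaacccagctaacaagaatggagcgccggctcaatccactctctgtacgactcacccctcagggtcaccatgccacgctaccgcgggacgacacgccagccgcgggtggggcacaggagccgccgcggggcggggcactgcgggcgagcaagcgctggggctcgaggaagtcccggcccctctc
The Rgs3 window has 48.4% GC and 3 CpG, and the Rgs19 window 64.8% GC, 20 CpG and none of the motifs searched. Both genes have further annotated start sites, and these counts do not tell which were used.

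In CPM, Rgs3 was at 5.594, 6.424 and 8.298 in WT CB, at 10.15, 13.1 and 13.2 in WT CC, at 5.75 and 5.119 in HOMO CB, and at 10.01 and 8.73 in HOMO CC. Every CC library lay above every CB library, in both genotypes. Rgs3 rose 1.78-fold from CB to CC in WT (log2 0.83, SE 0.192, adjusted p = 0.0103, edgeR). In HOMO the change was 0.79 (SE 0.239), which did not pass (adjusted p = 0.0835) but did with the WT number as a block (adjusted p = 0.0195). The interaction was -0.04 (SE 0.306, adjusted p = 1.0). In WT the gene no longer passed without library 1 of WT CB (adjusted p = 0.0527), without either of WT numbers 1 and 2 (adjusted p = 0.0554 and 0.110), and without WT CC libraries 1 and 2 (log2 0.96, adjusted p = 0.0656). It also did not pass without WT numbers 1 and 2, at 0.65, the smallest change among the alternatives, which rests on 1 WT library in each fraction.

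Rgs19, the RZ member, which acts on the Gi family, was lower in CC. Its levels were 85.17, 89.22 and 61.49 CPM in WT CB, 49.25, 55.35 and 55.47 in WT CC, 79.4 and 73.54 in HOMO CB, and 65.48 and 58.26 in HOMO CC. The fractions did not overlap within either genotype, and WT CB library 3 lay nearest to the CC libraries. Rgs19 fell by 0.56 on the log2 scale from CB to CC in WT (SE 0.135, 1.47-fold, adjusted p = 0.0128, edgeR). In HOMO the change was -0.30 (SE 0.165, adjusted p = 0.364). The WT call was lost in 7 of 24 alternatives. Leaving out WT CB library 1 (adjusted p = 0.0581), WT CB library 2 (0.0512) or WT CC library 1 (0.0564) ended it, as did leaving out WT number 1 (0.169) or 2 (0.103) from both fractions. The other losses were without WT CC libraries 1 and 2 (-0.49, adjusted p = 0.199) and with number 3 as the single WT library of each fraction (-0.17).

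Rgs14, on chromosome 13 at 55369732 to 55384687, carries Ras and Rap binding domains and a GoLoco motif for inactive Gi beside its RGS domain. Its levels in CPM were 47.67, 47.82 and 35.89 in WT CB, 60.01, 62.5 and 49.85 in WT CC, 45.56 and 44.41 in HOMO CB, and 49.8 and 48.96 in HOMO CC. WT CC was the highest group, and number 3 was the lowest library of both WT groups, the reverse of Rgs2 and Rgs1. Rgs14 rose 1.31-fold from CB to CC in WT (log2 0.40, SE 0.127) and passed narrowly (adjusted p = 0.0436, edgeR). The adjusted p was 0.00138 with the WT number as a block, and the call was lost in 13 of 24 alternatives, where it reached 0.521 without WT CC libraries 1 and 2. Leaving out any 1 of the WT CB libraries ended it (adjusted p of 0.0663, 0.0522 and 0.0667 by number), as did leaving out WT CC library 1 (0.123) or 2 (0.144) and either library of either HOMO group (0.0715 to 0.0773). In HOMO the change was 0.14 (SE 0.157, adjusted p = 0.724).

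Rgs10, a small R12 member selective for Gi, on chromosome 7 at 128373621 to 128418758, was the steadiest of the 9. The WT CB libraries had 30.57, 33.56 and 26.03 CPM, those of WT CC 29.0, 28.69 and 25.91, those of HOMO CB 25.01 and 23.72, and those of HOMO CC 28.07 and 23.15. The fractions overlapped in both genotypes, with changes of -0.11 in WT (SE 0.124, adjusted p = 0.585) and 0.08 in HOMO (SE 0.153, adjusted p = 0.862) in edgeR's fit. Rgs10 was the 1 gene of the 9 whose HOMO CB libraries did not overlap the WT CB libraries, at -0.30 (SE 0.138, adjusted p = 0.40).

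**Figure D3:**
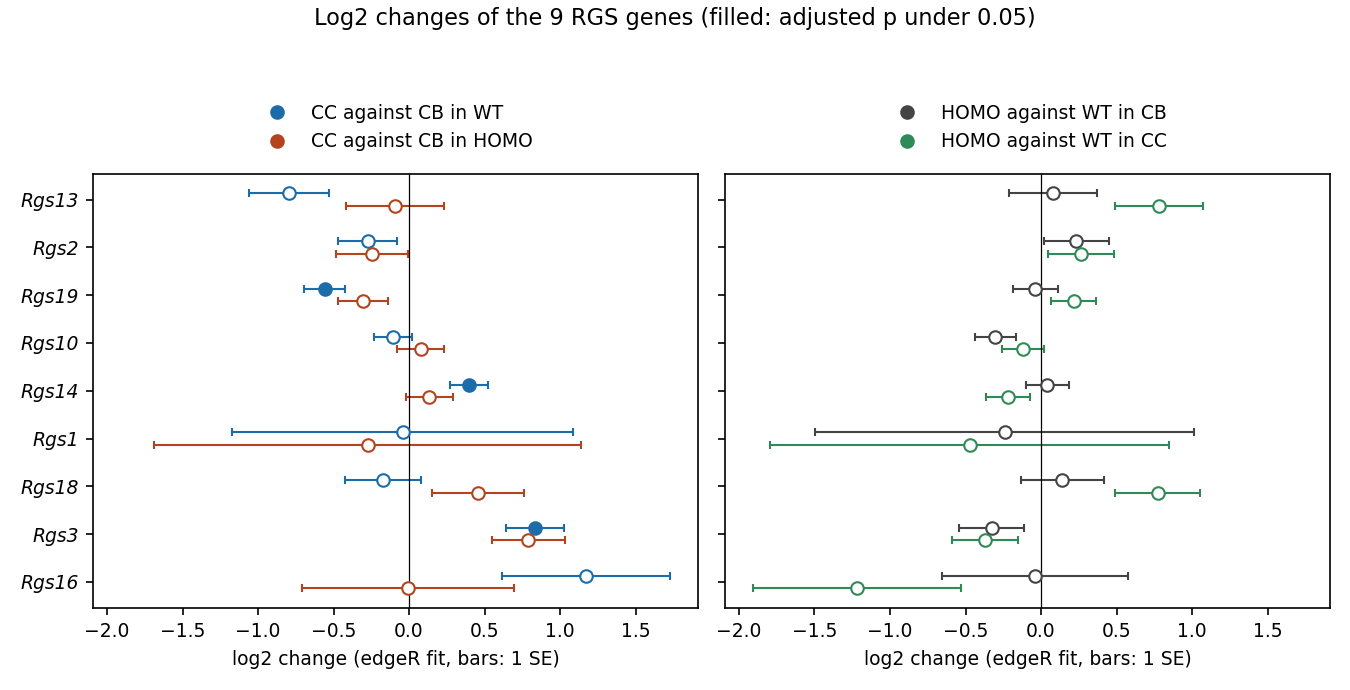
Log2 changes of the 9 RGS genes in edgeR's fit, with bars of 1 SE, for CC against CB in each genotype and for HOMO against WT in each fraction. Filled points passed an adjusted p of 0.05, which only Rgs3 (0.83), Rgs14 (0.40) and Rgs19 (-0.56) did, all in CC against CB in WT.

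Counted over the 9 genes, CC against CB in WT called 3, with 2 higher (Rgs3 and Rgs14) and 1 lower (Rgs19). Of all 16596 genes tested, 23.9% were called in that contrast, 11.6% higher and 12.3% lower, so 3 of 9 is near what the whole table gave. The median log2 change was -0.11 over the 9 genes and 0.01 over all genes. In bulk RNA a change in the share of a cell type and a change in RNA per cell cannot be told apart. With the WT number as a block 5 of 9 were called, Rgs13 and Rgs2 in addition, against 35.4% of all genes, and without both libraries of number 3 the same 5, against 46% of all genes. Without WT CC libraries 1 and 2, where the WT CC group is 1 library with no replicate, none of the 9 was called, against 4.96% of all genes. The libraries of CB and CC did not overlap for 5 of the 9 genes in WT, against 34.4% of all genes, and for 6 of 9 in HOMO, against 62% of all genes.

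In HOMO, CC against CB called 0 of 9 in edgeR, against 5.45% of all genes. Rgs3 alone had an unadjusted edgeR p under 0.05, against 3188 of all 16596 genes. DESeq2 called 1, Rgs3, against 11.8% of the genes it tested. With the WT number as a block, which changes the HOMO contrast through the shared spread, Rgs3 was called, against 13.8% of all genes. Without both libraries of WT number 3, Rgs3, Rgs19 and Rgs2 were called, against 23% of all genes.

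HOMO against WT called 0 of 9 in CB, against 0.0241% of all genes, and 0 of 9 in CC, against 0% of all genes, in edgeR. At an unadjusted edgeR p under 0.05 there were 0 in CB and 2 in CC, Rgs13 and Rgs18. Of all 16596 genes, 2079 in CB and 3142 in CC were under it. DESeq2 called none in either fraction, against 2.11% of the genes it tested in CB and 5.28% in CC. The groups did not overlap for 1 of 9 in CB and 6 of 9 in CC, against 35.2% of all genes in each fraction. In CC these were Rgs13, Rgs18 and Rgs19, higher in HOMO, and Rgs3, Rgs14 and Rgs16, lower in HOMO. This comparison and that of CC with CB in WT share the WT CC libraries. The interaction called 0 of 9, against 0% of all genes with or without the WT block. None of the 9 had an unadjusted edgeR p under 0.05, against 434 of all 16596 genes. DESeq2 called none, against 0% of the genes it tested. Without both libraries of WT number 3, HOMO against WT called 3 of 9 in CB (Rgs1, Rgs10 and Rgs2; 30.4% of all genes), 6 of 9 in CC (Rgs1, Rgs13, Rgs14, Rgs18, Rgs19 and Rgs2; 31.3% of all genes), and the interaction 2 (Rgs13 and Rgs19; 8.98% of all genes).

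Among the 12 other RGS genes, 4 were tested, and 1 rose and 1 fell from CB to CC in WT. Rgs4, an R4 gene best known from brain and heart, had 45, 60 and 98 reads in WT CB, 7, 5 and 6 in WT CC, 10 and 13 in HOMO CB, and 1 and 1 in HOMO CC. WT CB, at 1.53 to 2.06 CPM, was thus above every other library, which held 0.061 to 0.421. Rgs4 fell by 2.47 on the log2 scale in WT (SE 0.468, adjusted p = 0.00397, edgeR). HOMO CB against WT CB was -2.72 (SE 0.530), which did not pass (adjusted p = 0.155) and did without WT CB library 3 (adjusted p = 0.0156) and without the filter on low counts (adjusted p = 0.0188). Its WT call was lost in 4 of 24 alternatives. Among these were leaving out WT number 1 (edgeR adjusted p = 0.0628) or 2 (0.0642) from both fractions, and leaving out WT CC libraries 1 and 2. Rgs9, an R7 gene known from photoreceptors and striatum, held 38.17, 41.29 and 44.56 CPM in WT CB and 62.23, 75.39 and 50.83 in WT CC, and rose by 0.60 (SE 0.134, adjusted p = 0.00881). It was at 60.02 and 55.61 CPM in HOMO CB and 70.61 and 63.01 in HOMO CC, and its HOMO change was 0.21 (adjusted p = 0.561). The Rgs9 call in WT was also lost in 4 of 24 alternatives. Among these were leaving out WT number 1 (edgeR adjusted p = 0.101) or 2 (0.0855) from both fractions, and leaving out WT CC libraries 1 and 2.

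Of the G protein subunits that passed from CB to CC, most were lower in CC. Of 10 alpha subunits tested, 5 fell and 1 rose from CB to CC in WT (median -0.46, against 0.01 over all genes), and in HOMO 2 fell. Of all genes, 11.6% were called higher and 12.3% lower in WT, and 5.45% were called in either direction in HOMO, and the counts of this and the other lists stand against these shares. Gna13, through which S1pr2 signals, fell by 0.51 in WT (SE 0.0907, adjusted p = 0.00295) and by 0.54 in HOMO (adjusted p = 0.0161), and Gnai3, a Gi subunit, fell by 0.78 in WT (SE 0.149, adjusted p = 0.0042). Of 12 beta and gamma subunits tested, 6 fell and none rose in WT (median -0.58), and 1 fell in HOMO. Gnb1, the main beta subunit of many cells, fell by 0.71 in WT (SE 0.0896, adjusted p = 0.000378) and by 0.63 in HOMO (adjusted p = 0.00691). Gng12 fell by 0.62 in WT (SE 0.105, adjusted p = 0.00228). The HOMO calls of Gna13 and Gnb1 were lost on leaving out any 1 HOMO library, which leaves 1 library in that group. That of Gna13 was also lost without both libraries of WT number 1 (edgeR adjusted p = 0.0517). Without WT CC libraries 1 and 2, which leaves 1 WT CC library and calls 4.96% of all genes, the WT counts were 0 of 10 alpha subunits and 1 beta subunit, Gnb1, since Gna13 (adjusted p = 0.107), Gnai3 (adjusted p = 0.0622) and Gng12 (adjusted p = 0.0882) no longer passed.

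Receptors and effectors moved in both directions. Of 23 lymphocyte receptors tested, 7 rose and 3 fell in WT (median 0.36) and 2 rose and 1 fell in HOMO, against 23.9% of all genes called in WT and 5.45% in HOMO. Cxcr4, the dark zone receptor, fell by 1.89 in WT (SE 0.156, adjusted p = 3.81e-05) and by 1.43 in HOMO (adjusted p = 0.00158). S1pr3, a sphingosine phosphate receptor, rose by 1.22 in WT (SE 0.138, adjusted p = 0.000209) and by 1.42 in HOMO (adjusted p = 0.001). Of 22 effectors 7 rose and 3 fell in WT (median 0.18) and 4 rose and 2 fell in HOMO. Plcb2, a phospholipase driven by G protein subunits, rose by 1.00 in WT (SE 0.103, adjusted p = 0.000122) and by 1.01 in HOMO (adjusted p = 0.0012), and Pik3r5, the regulatory subunit of the G protein-driven PI3 kinase, by 2.2 in WT (SE 0.295, adjusted p = 0.000565) and 1.54 in HOMO (adjusted p = 0.0275). Cxcr4, S1pr3 and Plcb2 passed in both genotypes under every alternative run. The HOMO call of Pik3r5 was lost on leaving out any 1 HOMO library, which leaves 1 library in that group. It was also lost with the GC offset (edgeR adjusted p = 0.0573).

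Of 12 receptor kinases, arrestins and other regulators, 2 rose and 2 fell in WT (median 0.28) and 1 fell in HOMO. Gpsm2, which binds inactive Gi and orients the mitotic spindle, fell by 1.11 in WT (SE 0.117, adjusted p = 0.000142) and by 0.88 in HOMO (adjusted p = 0.0052). Its HOMO call was lost without HOMO CB library 3 and without HOMO CC library 2, each of which leaves 1 library in that group. Grk3, a receptor kinase, was 5.30 higher in WT CC on the log2 scale (adjusted p = 0.00461), but its levels of 39.19, 10.62 and 3.44 CPM in the WT CC libraries fell in the same order as the macrophage sums of 1015, 468.6 and 289.1, and a part of macrophage RNA in it was not tested. With the WT number as a block the regulators called in WT rose to 6 higher and 3 lower, and in HOMO the receptors called rose to 8 higher and 1 lower, the alpha subunits to 4 lower, the beta and gamma subunits and the regulators to 2 lower each, and the effectors to 7 higher and 3 lower. The block raised the share of all genes called as well, to 35.4% in WT and 13.8% in HOMO. No gene of the 6 lists passed in either comparison of HOMO with WT.

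**Figure D4:**
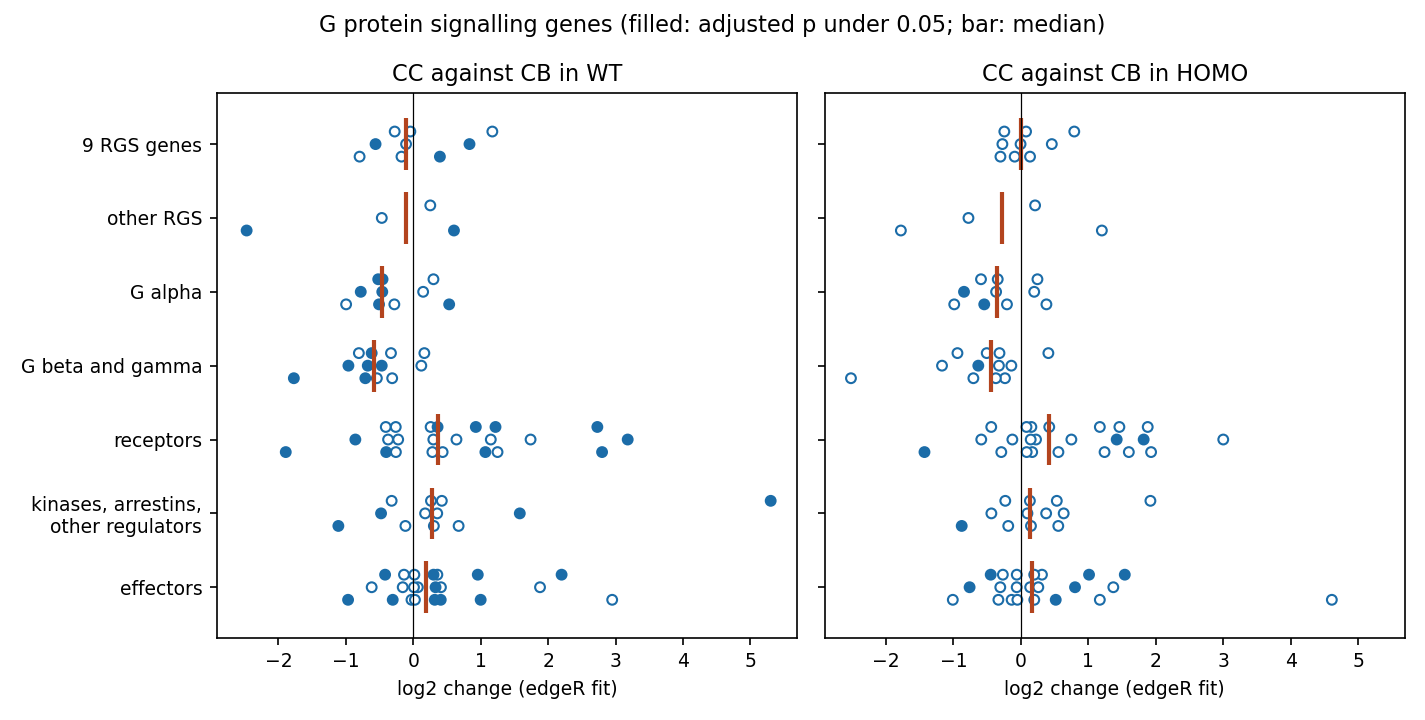
Log2 changes from CB to CC of the tested genes of the RGS family and of each list of G protein signalling genes (rows), in WT and in HOMO. Each point is 1 gene, filled where the adjusted p was under 0.05, and each bar a list's median, which lies at -0.46 for alpha subunits, -0.58 for beta and gamma subunits and 0.36 for receptors in WT.

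For the 3 most abundant members the genes with the most similar log2 levels were looked up among 8002 genes over the 10 libraries, as a description. Among the closest to Rgs13 were Minpp1 (r = 0.99) and Cltc (r = 0.99). Like Rgs13, these were lowest in WT CC libraries 1 and 2, where Cltc was at 526.6 and 486.9 CPM against 737.8 to 864.1 in the other 8, and by rank correlation Minpp1 was only the 864th closest. Closest to Rgs2 were Kdm6a, Ints6 and Idi1 (r = 0.98 each). Closest to Rgs19 were Med30, Arpc1a and Cox7b (r = 0.99 each), and Cox7b had the same order of libraries as Rgs19 (Spearman's rho 1.0).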

How the data were processed

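The table deposited by the authors gives raw counts for 55421 genes in 10 libraries, with a gene length in bases that was used for RPKM. Libraries were made from total RNA after ribosomal RNA depletion, per the labels' protocols. STAR, featureCounts, Subread, FastQC and R 4.2.1 and the build mm10 are named in the submitters' processing notes. For strand and for reads with several matches, the settings were not given in the sources used here. Symbols were found for 54587 identifiers by full version and for 567 by the stable part, and 267 had none.

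Genes were filtered with filterByExpr (minimum count 10, minimum total 15), which left 16596. The 4 group means were fitted to all 10 libraries with edgeR 4.0.16 (R 4.3.3) after TMM scaling, and 5 contrasts were tested with the robust quasi-likelihood test and Benjamini-Hochberg adjustment over all genes tested, and called at 0.05. The fit's common coefficient of biological variation was 23.1%. Each SE is the size of the log2 change over the root of F. DESeq2 1.42.0 and limma 3.58.1 (voom with a random block) served as alternatives. Likeness used log2(CPM + 0.5) for genes with a mean of at least 10 CPM. From each gene list the text names up to 2 called genes, by smallest p in CC against CB in WT (none was called between genotypes). The members and lists were chosen with earlier results of these data known.

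After subtraction of group means, WT libraries with the same number correlated with r = 0.301, 0.426 and 0.436 over 8805 genes, and WT libraries of different numbers with -0.411 to 0.278. The WT numbers were therefore taken as pairs, from the data and not from a label. The HOMO columns are numbered 2 and 3 and the HOMO titles 1 and 2, so HOMO columns were assigned to their group only and not paired. HOMO columns with the same number correlated with r = 0.315 and those of different numbers with -0.315, values that mirror each other in groups of 2. No block was fitted for HOMO, so the HOMO change from CB to CC and the interaction leave out any such pairing. No pair of libraries of a group agreed within sampling noise (chi-square per degree of freedom 4.14 to 80.7). The fit was tested on simulated counts with the real means and library sizes. Of genes changed 2-fold it recovered 83.6% for CC against CB in WT (16008 genes), 70.1% in HOMO (15999), 73.1% in CB for HOMO against WT (15987) and 62.7% in CC (16015).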

Additional observations from a re-analysis of the deposited data

How the results depend on the processing

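Counts of the 9 RGS genes called depended on the WT libraries used. For CC against CB in WT, 3 were called, and the number was 0 without both libraries of WT number 1, 0 without number 2, 5 without number 3, 0 without WT CC libraries 1 and 2, and 5 with the WT number as a fixed replicate block. Leaving out 1 library at a time gave from 0, without WT CB library 1, to 5, without WT CC library 3. Of all genes, 12.7% and 32.5% were called in these. For CC against CB in HOMO, 0 were called, and the number was 1 with DESeq2, 1 with the fixed block, 3 with only the groups compared in the fit and 3 without both libraries of WT number 3, with 0 to 1 on leaving out 1 library. For HOMO against WT it was 3 in CB and 6 in CC without number 3, and in CC 1 without the filter on low counts, with 0 to 1 on leaving out 1 library. For the interaction it was 2 without number 3 and 1 without the filter, with 0 to 1 on leaving out 1 library. Without WT numbers 1 and 2, an alternative added after seeing the data, each WT group holds 1 library. This alternative enters the ranges over all genes. Its spread comes from the HOMO libraries alone, so no count of RGS genes is given for it beside these numbers. The calls over all genes moved with them, from 858 to 7404 for CC against CB in WT (3965 in the fit reported), 174 to 4459 in HOMO (904), 0 to 4895 for HOMO against WT in CB (4), 0 to 5035 in CC (0) and 0 to 1445 for the interaction (0). CC against CB in WT called 23.9% of all genes in the fit reported, 6.32% without number 1 and 7.62% without number 2. It called 46% without number 3 and 35.4% with the fixed block. In HOMO the shares were 11.8% with DESeq2, 13.8% with the fixed block, 30.4% with only the groups compared and 23% without number 3. Without number 3, HOMO against WT called 30.4% in CB and 31.3% in CC, and the interaction 8.98%. Without the filter HOMO against WT called 4.49% in CC, and the interaction 0.526%. On leaving out 1 library, the 1 call in HOMO came without WT CB library 3, where 9.44% of all genes were called. The 1 call for HOMO against WT, in CC, and the 1 for the interaction came without WT CC library 3, where 14.8% and 0.0306% were called. Upper-quartile scaling moved the share of calls that were higher from 48.3% to 59.5% in WT and from 45.2% to 58.5% in HOMO.

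Of 1043 recomputed changes of single genes, 907 kept direction and side of the threshold, 25 lost it, 35 passed it and 76 changed sign. The fixed block, apart from the calls named in the report, changed no call of the 9 genes. Sign changes were, on the log2 scale and by setting, as follows. With the GC offset, Rgs1 was 0.035 and Rgs13 0.25 for CC against CB in HOMO, Rgs1 0.23 and Rgs18 0.055 in WT, and Rgs13 -0.47, Rgs16 0.099, Rgs18 -0.49 and Rgs19 0.099 for HOMO against WT in CB. With DESeq2, Rgs1 was 0.0072 for CC against CB in WT. With upper-quartile scaling Rgs16 was 0.052 for CC against CB in HOMO and Rgs19 0.0053 for HOMO against WT in CB, and with RLE scaling Rgs16 was 0.014 for CC against CB in HOMO. With the random block, HOMO against WT was 0.067 for Rgs1 and 0.041 for Rgs16 in CB and 0.50 for Rgs1 in CC, the interaction 0.44 for Rgs1 and 0.065 for Rgs3, and CC against CB in HOMO 0.037 for Rgs16. Without both libraries of WT number 1, Rgs19 was 0.022 for HOMO against WT in CB and Rgs2 -0.014 for the interaction. Without number 2, Rgs1 was 0.058 for CC against CB in WT, Rgs16 0.084 and Rgs19 0.062 for HOMO against WT in CB, and Rgs3 0.053 for the interaction. Without number 3, HOMO against WT was 1.36 for Rgs1, -0.059 for Rgs14, 0.015 for Rgs16 and -0.0057 for Rgs18 in CB and 1.40 for Rgs1 in CC, and the interaction 0.033 for Rgs1. Without WT CC libraries 1 and 2, CC against CB in WT was 1.27 for Rgs1 and 0.16 for Rgs2, HOMO against WT in CC -0.16 and the interaction -0.39 for Rgs2. Without WT numbers 1 and 2, CC against CB in WT was 0.062 for Rgs1 and 0.15 for Rgs18, HOMO against WT in CC 0.018 for Rgs10, 0.011 for Rgs14 and -0.14 for Rgs2, in CB 0.29 for Rgs19 and -0.10 for Rgs2, and the interaction -0.10 for Rgs19, -0.041 for Rgs2 and 0.18 for Rgs3.

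On leaving out 1 library, Rgs1 ranged from -1.89 to 1.53 for CC against CB in WT, from -0.65 to 1.34 and from -0.98 to 1.38 for HOMO against WT in CB and CC, and from -1.81 to 1.65 for the interaction. Ranges that crossed 0 for HOMO against WT in CB were -0.085 to 0.11 for Rgs14, -0.24 to 0.13 for Rgs16, -0.097 to 0.38 for Rgs18 and -0.19 to 0.062 for Rgs19, and in CC -0.25 to 0.0085 for Rgs10. For the interaction they were -0.16 to 0.31 for Rgs2 and -0.22 to 0.075 for Rgs3, and for CC against CB in HOMO -0.085 to 0.19 for Rgs10 and -0.17 to 0.20 for Rgs16. The causes of these shifts were not tested. With 2 or 3 libraries a group, differences under 2-fold were often not detectable, and the 4 to 26 reads per library of Rgs16 limit it further.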
